A study of Mus musculus with 8 samples.

Results

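The 60S subunit assembly factors are nuclear and cytoplasmic proteins that build the large ribosomal subunit and do not stay in it. They were taken as a named list of 45 mouse genes, of which 44 were matched by Ensembl identifier and symbol among 37991 gene rows of the count table. Noc2l was not analysed here. RNA sequencing had been done on bone marrow Flt3- LSK cells, which include haematopoietic stem cells and other early progenitors, of C57BL/6J mice. The Mut-labelled samples were described as Runx1 deficient, and the WT samples as wild type, with floxed Runx1 per the design text. The labels give no Cre driver, deleted exon, age or number of pooled animals. Each of the 2 samples of a genotype was of 24000 sorted cells, with ERCC spike-in RNA added to the purified RNA, and was sequenced as a polyA-selected library (mRNA library) and as a total RNA library, 8 libraries in all. Ribosome biogenesis is named in the series title, and the comparison asked how Runx1-deficient cells differ from WT cells.

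Assembly of the 60S subunit begins in the nucleolus, where a long precursor RNA that holds the 28S and 5.8S sequences binds ribosomal proteins and early factors. Helicases, GTPases and AAA ATPases then reshape the particle, the internal transcribed spacer ITS2 is cut out, and late factors prepare the particle for export. In the cytoplasm the last factors are stripped off, and the anti-association factor Eif6 is released by Sbds and Efl1. In blood the pathway is known from inherited marrow failure, since mutations in human SBDS or EFL1 cause forms of Shwachman-Diamond syndrome. Much of what is known of the single factors comes from their yeast relatives.

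Gene counts summed to between 35096252 and 37924699 per mRNA library and to between 967694 and 1218437 per total RNA library, where rRNA took most reads. A single factor had 591 to 12515 counts in an mRNA library, but only 10 to 440 counts in a total RNA library, so single-gene differences were less precise there. Runx1, which encodes the transcription factor named in the genotype, did not show a loss over the whole gene. It stood at 749 and 941 CPM (gene counts scaled to an equal library total, after TMM scaling) in the Mut-labelled mRNA libraries. In the WT mRNA libraries it stood at 200.003 and 208 CPM (edgeR adjusted p = 0.00753). Since the deleted exon is not given, counts over the whole gene cannot check the label, and directions below rest on the labels. The 7 stem and progenitor cell markers summed to 2252 and 2461 CPM in Mut-labelled and 2065 and 2055 CPM in WT mRNA libraries, with 1 called higher and 0 called lower by edgeR. The one called was Cd48, a surface protein that mouse multipotent progenitors carry and long-term stem cells lack (181 and 179 CPM in Mut-labelled and 47.6 and 42.6 CPM in WT mRNA libraries, edgeR adjusted p = 0.00451), and Slamf1, which encodes CD150, had a log2 fold change of 0.77 (edgeR adjusted p = 0.159). Kit had 954 and 1100 CPM in the Mut-labelled and 891 and 884 CPM in the WT mRNA libraries, and Ly6a, which encodes Sca-1, had 32.5 and 26.0 CPM against 23.7 and 38.6 CPM. Flt3, which the sort was meant to exclude, was detected at 57.3 and 87.6 CPM in Mut-labelled and at 117 and 155 CPM in WT mRNA libraries. Some other cell type markers moved with the genotype. Summed levels of the neutrophil, the B cell and the macrophage and dendritic cell lists overlapped between the groups. The neutrophil sum in WT mRNA libraries was mostly Elane (133 and 50.3 CPM in Mut-labelled and 142 and 83.7 CPM in WT). Elane was at -0.30 on the log2 scale, whereas 8 of the 9 neutrophil markers lay above WT without overlap, where 21.4% of all genes did. The median of that list was 2.79. In total RNA libraries 4 of 5 tested neutrophil markers were called higher, where 4.22% of all genes were called in either direction. Summed levels in the Mut-labelled and then the WT mRNA libraries were 1570 to 1674 against 516 to 577 CPM for 6 megakaryocyte markers (2 called higher, 1 lower) and 168 to 583 against 125 to 176 CPM for 9 neutrophil markers (1 called higher). They were 263 to 385 against 995 to 1267 CPM for 10 erythroid markers (4 called lower), 492 to 618 against 91.0 to 131 CPM for 5 mast cell and basophil markers (1 called higher, 2 lower) and 8.29 to 11.1 against 27.7 to 28.4 CPM for 6 T cell markers (1 called lower). For 6 B cell markers they were 31.0 to 38.7 against 31.6 to 47.3 CPM (0 called by edgeR), and for 7 macrophage and dendritic cell markers 50.01 to 69.4 against 54.1 to 61.3 CPM (1 called lower). In no list was a marker at 0 in all mRNA libraries. Some sums rested mostly on 1 gene. Itga2b, with 1345 and 1344 against 337 and 318 CPM in WT, made up most of the megakaryocyte sum, and that list had 4 positive and 2 negative markers. Cpa3 (455 and 514 against 28.7 and 19.4 CPM) carried the mast cell and basophil sum in Mut-labelled libraries, with 2 positive and 3 negative markers. Lck (1.94 and 2.19 against 18.3 and 20.1 CPM) carried the T cell sum in WT libraries, with 2 positive and 2 negative of 4 tested. The part of these cells in the levels of the assembly factors was not tested, and in such bulk samples fewer cells of a type and less RNA per cell cannot be told apart. The 10 proliferation markers, among them Mki67 and Pcna, summed to 2948 to 3280 CPM in Mut-labelled and 3144 to 3167 CPM in WT mRNA libraries, and those ranges overlapped. In total RNA libraries the same markers summed to 2869 and 2441 CPM in Mut-labelled and 2270 and 2407 CPM in WT, without overlap. There 7 were positive and 3 negative, with 0 called by edgeR.

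In the mRNA libraries most assembly factors stood slightly lower in the Mut-labelled cells, and no single factor passed the test. Of the 44 factors, 40 had a negative log2 fold change (Mut-labelled over WT), a share to be read against 51.4% of all 17128 genes tested. Their median log2 fold change was -0.19, where the median of all genes was -0.01, and the median factor stood at 87.4% of its WT mean. None was called at an adjusted p under 0.05 by edgeR's quasi-likelihood test (Benjamini-Hochberg over all genes), in a comparison in which 3.64% of all genes were called. DESeq2 called 0 as well, and with edgeR an unadjusted p below 0.05 was seen for 2 factors with lower values (8.38% of all genes) and for 1 with a higher value (7.27%). Both Mut-labelled libraries lay below both WT libraries for 18 of the 44 factors, where 23.1% of all genes did so, and above them for 1 factor, where 21.4% of all genes did so. The summed level of the factors was 4051 and 3805 CPM in Mut-labelled libraries and 4665 and 4154 CPM in WT libraries, and the groups did not overlap. When Mut-labelled replicate 2 was left out the factors' median was -0.07, with 29 factors below 0, and leaving out WT replicate 1 gave -0.09, with 28 below 0, so that its size rested on those libraries.

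**Figure D1:**
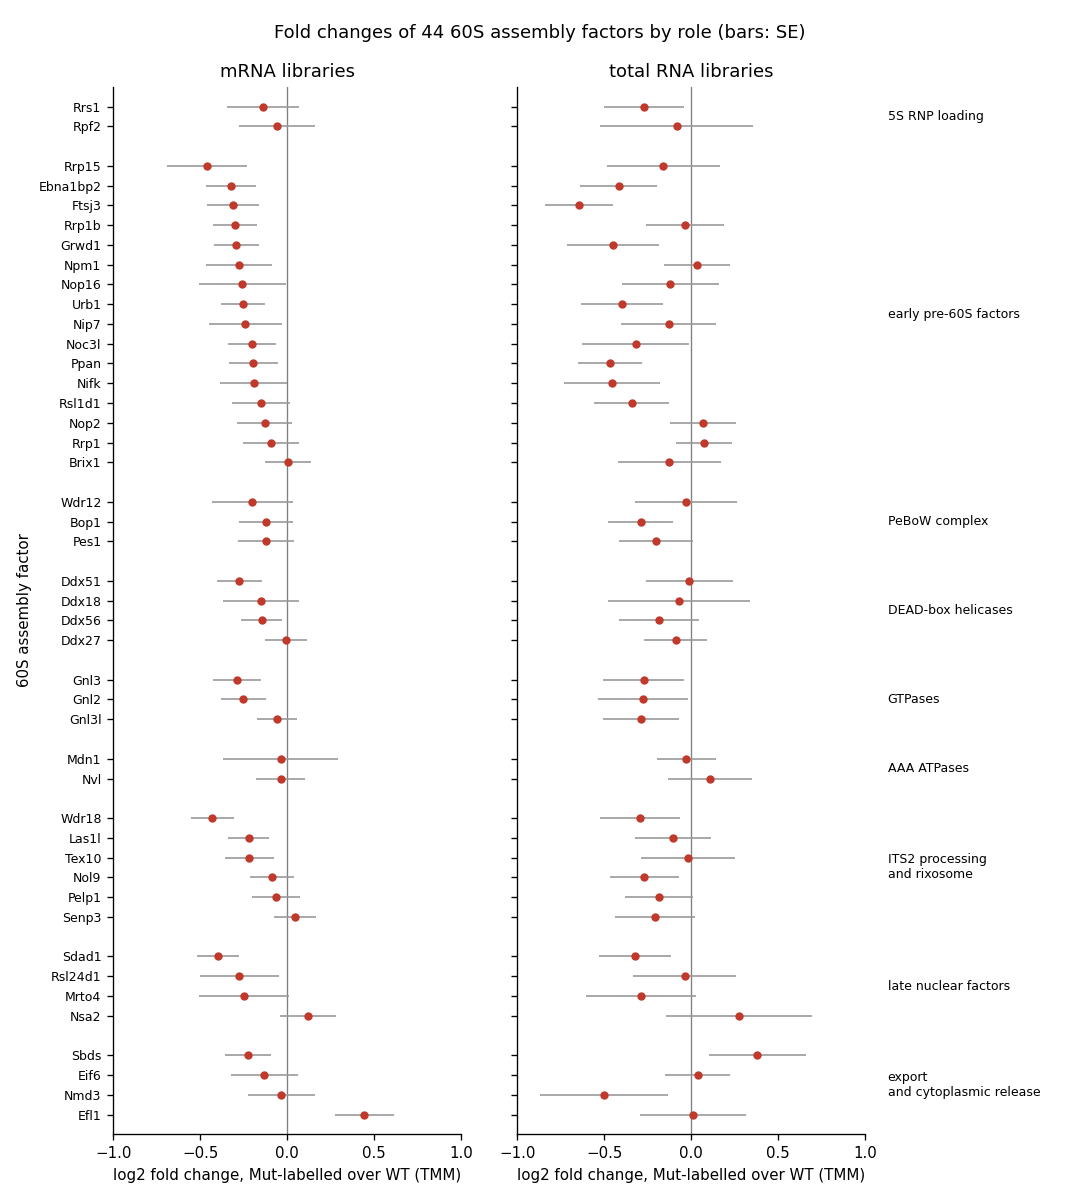
Log2 fold change of each of the 44 factors (x axis, Mut-labelled over WT after TMM scaling) in mRNA and total RNA libraries, with bars for 1 SE, grouped by role. Most points lie left of 0 in both panels, Efl1 is the highest point in mRNA libraries (0.44) and Ftsj3 the lowest in total RNA libraries (-0.65), and none was called.

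The total RNA libraries, made without polyA selection, gave a like picture at lower depth. There 36 of the 44 factors had a negative log2 fold change, where 50.2% of all 10546 genes tested did. The median was -0.17, against 0.00 for all genes. None was called by edgeR, in a comparison that called 4.22% of all genes, nor by DESeq2, and 2 had an unadjusted p below 0.05 with edgeR, both lower (7.13% of all genes). The Mut-labelled libraries lay below the WT libraries for 18 factors (21.4% of all genes) and above them for 2 (22.5% of all genes). The factors summed to 3065 and 3086 CPM in Mut-labelled and 3485 and 3375 CPM in WT libraries. The median was -0.11 when WT replicate 1 was left out. In both kinds of library 34 factors were negative, a share of all factors to be set beside 33.4% of the 10509 genes tested in both kinds. Of the 44, 9 lay below WT without overlap in both kinds, where 9.03% of those genes did. They were Ddx56, Gnl3l, Ebna1bp2, Ftsj3, Grwd1, Urb1, Noc3l, Ppan and Sdad1. Because both kinds were made from samples with the same names, they are not independent replicates of the genotype.

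**Figure D2:**
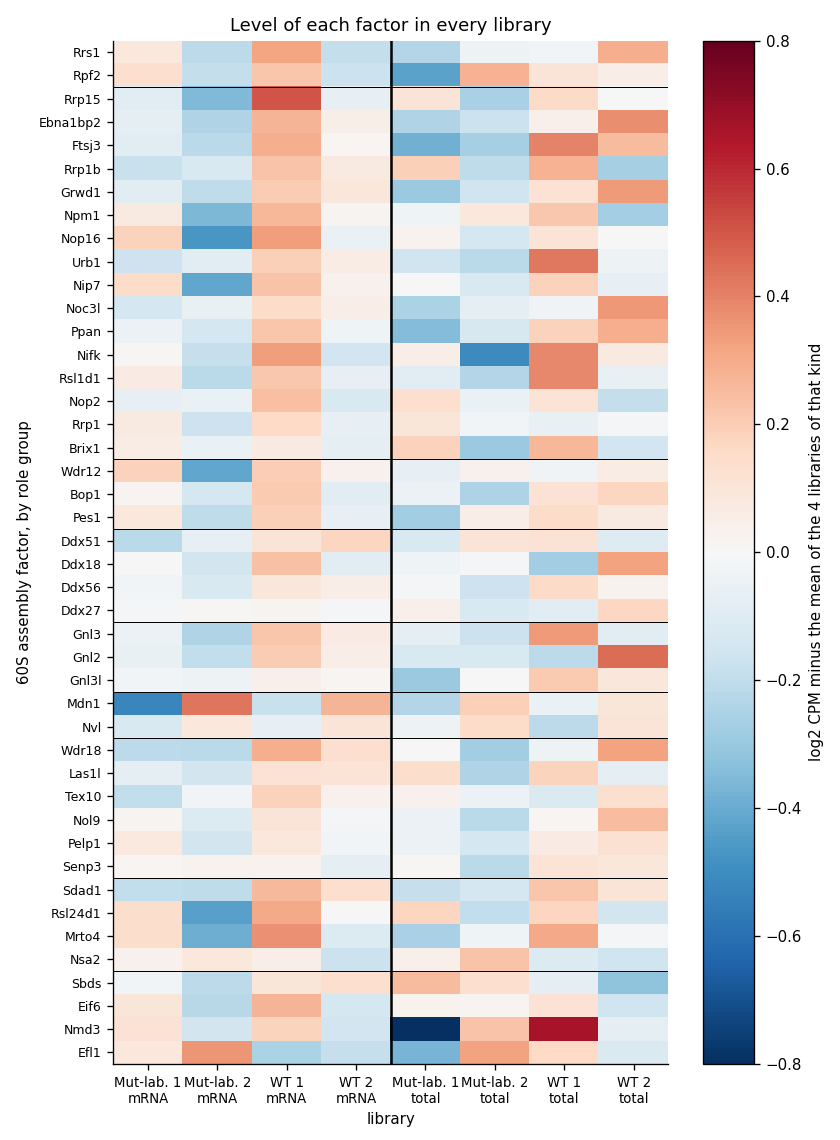
Log2 CPM of each factor (rows, by role group) in each of the 8 libraries (columns), minus the mean of the 4 libraries of the same kind. Of the mRNA libraries, Mut-labelled replicate 2 is mostly below 0 (blue), Mut-labelled replicate 1 is mixed and WT replicate 1 mostly above 0 (red). The total RNA libraries, with 10 to 440 counts a factor, scatter more.

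The first proteins to be joined to the particle include those that load the 5S ribonucleoprotein, which in yeast is brought in by the relatives of Rpf2 and Rrs1. Rrs1 had 98.9 and 81.0 CPM in Mut-labelled and 116 and 81.8 CPM in WT mRNA libraries, which differed by -0.14 on the log2 scale (SE 0.21, edgeR adjusted p = 0.859). The Mut-labelled replicate 2 and the WT replicate 2 were almost equal, and the fold change turned positive without WT replicate 1 (0.13) or without Mut-labelled replicate 2 (0.0057). Rpf2 was at -0.06 in mRNA and -0.08 in total RNA libraries.

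The 16 early nucleolar factors analysed held 15 negative fold changes in the mRNA libraries (51.4% of all genes tested), with a median of -0.25 and a range of -0.46 to 0.01. Of these, 8 lay below WT without overlap, where 23.1% of all genes did. Rrp15, a nucleolar factor of the early particle, had the most negative value of all. It had 40.7 and 33.9 CPM in Mut-labelled and 61.3 and 41.4 CPM in WT mRNA libraries, a fold change of -0.46 on the log2 scale (SE 0.23, edgeR adjusted p = 0.437). WT replicate 1 alone stood high, the fold change was -0.15 without it, and total RNA libraries gave -0.16. Ebna1bp2, the relative of yeast Ebp2, had 110 and 97.9 CPM in Mut-labelled and 140 and 120 CPM in WT mRNA libraries (log2 fold change -0.32, SE 0.14, edgeR adjusted p = 0.371). It had 59.3 and 62.0 CPM against 72.1 and 90.3 CPM in WT in total RNA libraries (-0.42, edgeR adjusted p = 0.42). The Ebna1bp2 libraries did not overlap in either kind, and the mRNA fold change was -0.21 without WT replicate 1. Rrp1, a relative of yeast Rrp1, had the most counts of this group, with 310 and 262 CPM in Mut-labelled and 330 and 281 CPM in WT mRNA libraries, and these overlapped (-0.09, SE 0.16, edgeR adjusted p = 0.882). Brix1, whose family shares an RNA-binding fold, stood at 63.2 and 58.4 CPM against 63.6 and 57.5 CPM in WT, the closest to no difference (0.01, SE 0.13).

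Of the early factors, 5 more were singled out after their values were seen or are described for their role. Ftsj3 (ENSMUSG00000020706), the relative of the yeast methyltransferase Spb1, had the smallest adjusted p of all factors in total RNA libraries. It had 74.4 and 80.5 CPM in Mut-labelled and 128 and 115 CPM in WT total RNA libraries, a fold change of -0.65 on the log2 scale (SE 0.19, edgeR adjusted p = 0.0727, unadjusted p = 0.00354). In mRNA libraries Ftsj3 had 130 and 118 CPM against 169 and 139 CPM in WT (-0.31, edgeR adjusted p = 0.412). Both kinds of library showed every Mut-labelled value of Ftsj3 below every WT value, and the mRNA fold change was -0.17 without WT replicate 1. Ppan, a Brix family member related to yeast Ssf1, was the other factor with an unadjusted p below 0.05 in total RNA libraries, with 93.8 and 109 CPM in Mut-labelled and 135 and 146 CPM in WT (-0.46, SE 0.18, edgeR adjusted p = 0.212). Npm1, the abundant nucleolar chaperone mutated in human acute myeloid leukaemia, had 223 and 165 CPM in Mut-labelled and 255 and 215 CPM in WT mRNA libraries, which overlapped (-0.28, SE 0.19, edgeR adjusted p = 0.62). The mRNA value of Npm1 was -0.51 without Mut-labelled replicate 1, -0.07 without Mut-labelled replicate 2 and -0.15 when WT replicate 1 was left out. Its total RNA value was 0.04, and its counts are uncertain, because near-identical copies of the gene can share its reads. Nop2, which methylates 28S rRNA, was at -0.13 in mRNA and 0.07 in total RNA libraries, and Grwd1, a relative of the yeast chaperone of ribosomal protein L3, at -0.29 and -0.45.

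**Figure D3:**
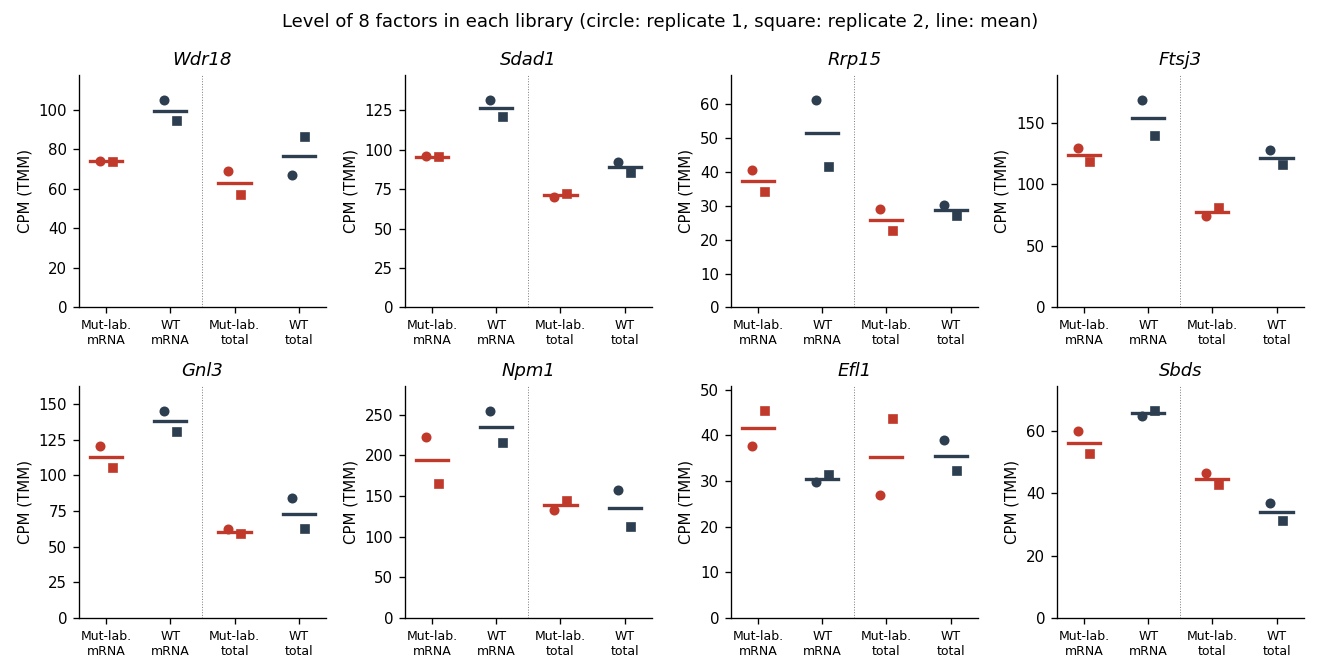
CPM after TMM scaling (y axis, from 0) of 8 factors in each library, with Mut-labelled left of WT within each kind, circles for replicate 1, squares for replicate 2 and lines for means of 2. Wdr18, Sdad1, Rrp15, Ftsj3, Gnl3 and Sbds lie lower in Mut-labelled mRNA libraries without overlap, Npm1 overlaps, Efl1 lies higher, and Sbds lies higher in Mut-labelled total RNA libraries.

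Bop1, Pes1 and Wdr12 form the PeBoW complex, needed to mature the 28S and 5.8S ends. All 3 were negative in both kinds of library, and all 3 overlapped in mRNA libraries. Bop1 had 123 and 110 CPM in Mut-labelled and 140 and 113 CPM in WT mRNA libraries (log2 fold change -0.12, SE 0.15, edgeR adjusted p = 0.823). The total RNA libraries gave 109 and 94.7 CPM against 122 and 126 CPM in WT without overlap (-0.29, edgeR adjusted p = 0.529). Pes1 stood at -0.12 and Wdr12 at -0.20 in mRNA libraries.

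The 4 DEAD-box helicases, which use ATP to unwind RNA in the particle, had a median of -0.15 in mRNA and -0.08 in total RNA libraries. Ddx27 was nearly equal, with 160 and 163 CPM in Mut-labelled and 164 and 160 CPM in WT mRNA libraries (-0.01, SE 0.12, edgeR adjusted p = 0.991). Ddx51 was the lowest of them (-0.28) and Ddx56 lay below WT without overlap in both kinds (-0.15 and -0.19). The nucleolar GTPases Gnl2, Gnl3 and Gnl3l all lay below WT without overlap in the mRNA libraries, where 23.1% of all genes did. Gnl3, or nucleostemin, is known for its high level in stem and tumour cells. It had 120 and 105 CPM in Mut-labelled and 145 and 130 CPM in WT mRNA libraries (log2 fold change -0.29, SE 0.14, edgeR adjusted p = 0.411). Without Mut-labelled replicate 2 it was at -0.19. Gnl2 was at -0.25 and Gnl3l at -0.06 with all libraries, and in total RNA libraries the 3 stood between -0.29 and -0.27, with Gnl3 at -0.04 there without WT replicate 1.

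The AAA ATPases Mdn1 and Nvl pull assembly factors off the particle, and neither showed a genotype difference beyond the spread of replicates. Mdn1 had 165 and 318 CPM in Mut-labelled and 210 and 286 CPM in WT mRNA libraries (log2 fold change -0.04, SE 0.33, edgeR adjusted p = 0.982). Its replicates differed more than its groups, and the fold change was -0.58 without Mut-labelled replicate 2 and 0.36 without Mut-labelled replicate 1. Nvl was at -0.04 in mRNA and 0.11 in total RNA libraries.

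ITS2 is removed by the nuclease Las1l with the kinase Nol9, and the scaffold proteins Pelp1, Tex10 and Wdr18 with the SUMO protease Senp3 form the rixosome around them. Of these 6, 5 were negative in mRNA libraries and 6 in total RNA libraries. Wdr18 (ENSMUSG00000035754) had the smallest adjusted p of all factors in the mRNA libraries. It had 74.1 and 73.8 CPM in Mut-labelled and 105 and 94.2 CPM in WT mRNA libraries, 74.2% of WT (log2 fold change -0.43, SE 0.12, edgeR adjusted p = 0.155, unadjusted p = 0.0141). The total RNA libraries gave 69.0 and 57.0 CPM against 67.2 and 86.3 CPM in WT and overlapped (-0.29, edgeR adjusted p = 0.639), and leaving out WT replicate 2 gave -0.10, leaving out Mut-labelled replicate 2 -0.14. Pelp1 had 113 and 96.4 CPM against 113 and 105 CPM in WT mRNA libraries (-0.06, SE 0.14, edgeR adjusted p = 0.914). Senp3 had 91.9 and 92.6 CPM against 92.5 and 86.2 CPM in WT (0.05, SE 0.12, edgeR adjusted p = 0.929), and -0.21 in total RNA libraries. Las1l (-0.22) and Tex10 (-0.22) lay below WT without overlap in mRNA libraries, and Nol9 stood at -0.09.

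Of the 4 late nuclear factors, 3 were negative and 1 positive in either kind of library. Sdad1 (ENSMUSG00000029415), the relative of yeast Sda1, had 95.8 and 95.7 CPM in Mut-labelled and 132 and 121 CPM in WT mRNA libraries, 75.8% of WT (log2 fold change -0.40, SE 0.12, edgeR adjusted p = 0.177, unadjusted p = 0.0179). In total RNA libraries it had 70.0 and 72.1 CPM against 92.5 and 85.3 CPM in WT (-0.32, edgeR adjusted p = 0.528). Neither set of libraries overlapped. Nsa2 had 37.6 and 39.0 CPM in Mut-labelled and 38.1 and 32.5 CPM in WT mRNA libraries, with a positive value of 0.12 there (SE 0.16, edgeR adjusted p = 0.843) and of 0.28 in total RNA libraries. Mrto4 and Rsl24d1, whose yeast relatives hold the places of the stalk protein P0 and of ribosomal protein L24, were at -0.25 and -0.28 in mRNA libraries with overlapping groups.

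The factors of export and cytoplasmic release held the 1 factor that stood higher without overlap in mRNA libraries. Efl1 (ENSMUSG00000038563), the GTPase that works with Sbds to release Eif6, had 37.6 and 45.4 CPM in Mut-labelled and 29.8 and 31.2 CPM in WT mRNA libraries, 136% of WT (log2 fold change 0.44, SE 0.17, edgeR adjusted p = 0.282, unadjusted p = 0.0402). In total RNA libraries Efl1 had 26.9 and 43.6 CPM against 39.0 and 32.1 CPM in WT, with no direction (0.01, SE 0.30). Sbds, chosen after its values were seen, had 59.8 and 52.6 CPM in Mut-labelled and 64.9 and 66.5 CPM in WT mRNA libraries (-0.23, SE 0.13, edgeR adjusted p = 0.529), and its value was -0.13 without Mut-labelled replicate 2. Eif6 itself had 145 and 116 CPM against 163 and 123 CPM in WT mRNA libraries, which overlapped (-0.13, SE 0.19, edgeR adjusted p = 0.856). Nmd3, the export adaptor, stood at -0.03 in mRNA and -0.50 in total RNA libraries, and as few as 14 counts stood behind a total RNA value.

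Spike-in scaling answers another question, namely how much of each transcript there was relative to a fixed amount of added RNA. Under it the fold changes of the factors were more negative, and so were those of most other genes. The median log2 fold change of the factors was -0.53 in mRNA libraries, where that of all genes was -0.38, and -1.27 in total RNA libraries, where that of all genes was -1.10. The mRNA values rested on single libraries. Without Mut-labelled replicate 1 the median of the factors there was -0.10 and that of all genes 0.08, and without WT replicate 2 they were -0.06 and 0.24. Without Mut-labelled replicate 2 they were -1.12 and -1.12, and without WT replicate 1 they were -0.89 and -0.80. In total RNA libraries the median of the factors stayed between -1.73 and -0.87 when each library was left out in turn. In mRNA libraries 43 of the 44 factors were negative, against 82% of all genes, and Efl1 (0.11) was the exception. None was called by edgeR (0.993% of all genes were), with 0 at an unadjusted p below 0.05 (4.82% of all genes). Rrp15, Nop16, Mrto4 and Rsl24d1, 4 of the 44, lay below WT without overlap there, where 13% of all genes did. In total RNA libraries all 44 were negative, a share near the 97.6% of all genes, and 43 lay below WT without overlap, against 84.1% of all genes. None was called there either (3.54% of all genes were), with 23 at an unadjusted p below 0.05 (36.7% of all genes had one and were lower), but 39 were called without Mut-labelled replicate 1, when 63.1% of all genes were. Efl1 turned to -1.20 and Sbds to -0.72 in these libraries.

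**Figure D4:**
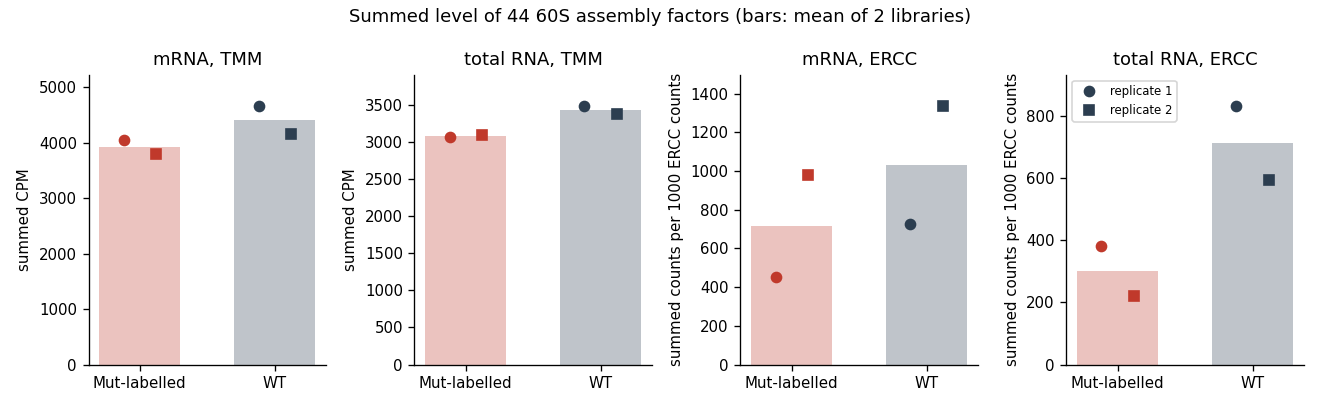
Summed level of the 44 factors in each library (points; bars are means of 2, y axes from 0), as CPM after TMM scaling and as counts per 1000 ERCC counts, with Mut-labelled left of WT. The groups do not overlap under TMM or in ERCC-scaled total RNA libraries, whereas ERCC-scaled mRNA libraries split by replicate number, with 453 and 978 in Mut-labelled and 726 and 1338 in WT libraries.

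The spike-in values carried a wide spread of their own. Gene counts per ERCC count were 112 and 262 in Mut-labelled and 154 and 319 in WT mRNA libraries, so that replicates of a genotype differed more than the genotypes did. In total RNA libraries they were 130 and 73.3 in Mut-labelled and 242 and 177 in WT libraries. The order of the replicates was opposite in the mRNA and the total RNA libraries of each genotype, although both kinds carry the same sample names. Ftsj3 shows the effect on a single factor, with 14.5 and 30.5 counts per 1000 ERCC counts in Mut-labelled and 26.3 and 44.8 in WT mRNA libraries. Its total RNA values were 9.24 and 5.78 in Mut-labelled and 30.5 and 20.4 in WT (log2 fold change -1.77, edgeR adjusted p = 0.0691).

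**Figure D5:**
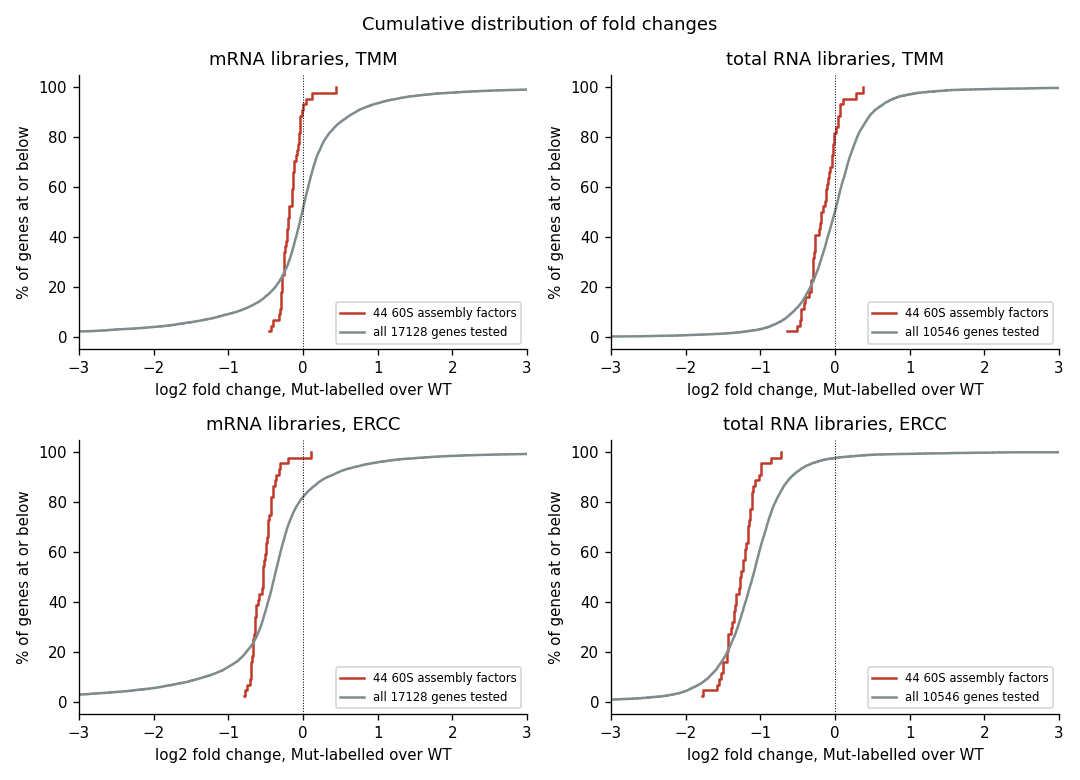
Cumulative share of genes (y axis, %) at or below each log2 fold change (x axis, Mut-labelled over WT) for the 44 factors and for all genes tested, by kind of library and scaling. The curve of the factors is steep and lies mostly left of 0. Its medians are -0.19 and -0.17 under TMM and -0.53 and -1.27 under ERCC scaling, where the curve of all genes moves left as well.

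A test of whether the genotype difference depended on the kind of library called no gene of 17416 and none of the 44 factors (edgeR, 0% of all genes). That fit did not tie the libraries of a sample together. With the sample name shared by both kinds of library as a block, 111 genes were called, 107 with a negative and 4 with a positive interaction, and 0 of the factors were among them. Without the block the 1 factor with an unadjusted p below 0.05 was Sbds, where 3.94% of all genes had one. Below 0 were 20 of the 44 interaction values, against 46.1% of all genes, and they had a median of 0.02 and ran from -0.43 to 0.65 on the log2 scale.

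Lists of genes for neighbouring steps of ribosome synthesis also had negative medians in mRNA libraries. Most of these medians were nearer to 0 than the -0.19 of the 44 factors. A further 28 factors of 60S assembly outside the list had a median log2 fold change of -0.08 in mRNA libraries, with 19 negative. Among them Heatr3, which carries ribosomal proteins L5 and L11, was at -0.33 and Nle1, a late factor, at 0.26 (edgeR adjusted p = 0.358 and 0.392). Of 44 assembly factors of the small (40S) subunit 40 were negative, with a median of -0.15, and Dimt1, an 18S methyltransferase, was at 0.76 and Nob1, which cuts the 18S end, at -0.29 (edgeR adjusted p = 0.292 and 0.335). The 8 core proteins of snoRNPs, the particles that guide rRNA modification, were all negative with a median of -0.24, Dkc1 at -0.35 and Nop10 at -0.37 (edgeR adjusted p = 0.251 and 0.541). Of 13 tested RNA polymerase I genes 9 were negative with a median of -0.08, Polr1e at -0.68 and Polr1a at -0.37 (edgeR adjusted p = 0.0886 and 0.211). Of 46 genes of 60S ribosomal proteins 38 were negative with a median of -0.12, with Rpl23a at -1.14 and Rpl21 at -0.42 (edgeR adjusted p = 0.312 and 0.351), though their reads can be shared with pseudogenes. None of these genes was called by edgeR in mRNA libraries, and the genes with an unadjusted p below 0.05 numbered 0, 1, 1, 2 and 1 in the order of the lists given, where 15.7% of all genes had one. The total RNA medians of the same lists were -0.03, -0.04, -0.15, -0.15 and -0.04, all nearer to 0 than the -0.17 of the 44 factors. Myc, a transcription factor that drives ribosome synthesis genes, had 360 and 501 CPM in Mut-labelled and 496 and 524 CPM in WT mRNA libraries (-0.25, edgeR adjusted p = 0.685).

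Promoters of the factors were read from RefSeq (GRCm38.p6), which had 43 start windows for 37 of the 44 genes, each from 250 bases before to 50 after a start. The E-box CACGTG, the core site of MYC family factors, was in 10 of the 43 windows (23.3%), against 7.15% of all 32851 windows. Of these 10, 4 had it in the 250 bases upstream, which is 9.30% of the 43 windows against 6.02% of all windows. The RUNX core TGTGGT was in 2 windows (4.65%, against 16.8% of all) and its variant TGCGGT in 6 (14.0%, against 6.45%), with both strands searched for each motif and matches of different motifs counted separately even where they overlap. The upstream 250 bases are shown for the 3 factors with the most negative and the 1 with the most positive mRNA fold change, and for Nop2, which holds both kinds of site, with matches in capitals.
Rrp15 (GRCm38.p6, chr1:186749359-186749608, minus strand): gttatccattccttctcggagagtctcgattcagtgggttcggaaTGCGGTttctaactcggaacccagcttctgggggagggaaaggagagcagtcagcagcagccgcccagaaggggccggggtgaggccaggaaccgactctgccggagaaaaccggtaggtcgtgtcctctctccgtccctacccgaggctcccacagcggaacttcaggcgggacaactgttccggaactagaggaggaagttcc
Wdr18 (GRCm38.p6, chr10:79959902-79960151, plus strand): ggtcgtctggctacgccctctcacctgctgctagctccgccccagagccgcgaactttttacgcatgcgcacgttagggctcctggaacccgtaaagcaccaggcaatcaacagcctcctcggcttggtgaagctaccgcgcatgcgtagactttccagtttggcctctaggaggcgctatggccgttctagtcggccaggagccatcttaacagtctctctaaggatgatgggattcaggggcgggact
Sdad1 (GRCm38.p6, chr5:92310025-92310274, minus strand): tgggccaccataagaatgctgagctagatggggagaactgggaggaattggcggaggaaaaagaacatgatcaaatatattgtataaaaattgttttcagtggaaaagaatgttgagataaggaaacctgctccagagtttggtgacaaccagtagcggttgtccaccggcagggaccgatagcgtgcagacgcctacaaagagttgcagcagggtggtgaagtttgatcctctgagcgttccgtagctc
Efl1 (GRCm38.p6, chr7:82648364-82648613, plus strand): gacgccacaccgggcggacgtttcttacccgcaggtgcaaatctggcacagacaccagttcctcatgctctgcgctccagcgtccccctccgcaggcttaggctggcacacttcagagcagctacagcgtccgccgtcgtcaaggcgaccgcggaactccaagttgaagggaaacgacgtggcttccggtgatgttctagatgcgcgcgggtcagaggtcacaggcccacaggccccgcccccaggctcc
Nop2 (GRCm38.p6, chr6:125131633-125131882, plus strand): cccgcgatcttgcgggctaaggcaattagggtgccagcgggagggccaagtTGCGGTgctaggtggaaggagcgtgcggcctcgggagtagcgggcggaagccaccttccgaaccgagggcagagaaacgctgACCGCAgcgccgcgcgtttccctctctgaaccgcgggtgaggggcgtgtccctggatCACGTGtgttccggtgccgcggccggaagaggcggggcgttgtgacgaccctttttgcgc
Rrp15 has 1 TGCGGT, at 205 bases before its start, and Nop2 has 2 matches to TGCGGT or its reverse complement, at 199 and 117 bases, and an E-box at 60 bases before its start. The upstream parts of Wdr18, Sdad1 and Efl1 held none of these motifs. A match is a string of letters and says nothing of binding.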

How the data were processed

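The deposited table held raw counts per gene, ERCC transcript and rRNA species for 8 libraries, which the authors had not normalised. Per the submitters' processing notes the build was mm9 and the tools TopHat, featureCounts and edgeR; not given in the sources used here were versions, annotation, strand use and the handling of multiply mapped reads. Of 38086 rows, 37991 were genes, 92 ERCC transcripts and 3 rRNA species, and the last 2 kinds were left out of library sizes and tests (rRNA took 93.3 to 94.5% of the counts in total RNA libraries). GENCODE M21 gave symbols to 32919 identifiers. For each kind of library, Mut-labelled was compared with WT by edgeR 4.0.16 (R 4.3.3), using its filter on low counts, TMM scaling or the summed ERCC counts as library size, the quasi-likelihood test (two-sided) without a block, and Benjamini-Hochberg adjustment over all genes tested. Genes with an adjusted p under 0.05 were called. A fit over all 8 libraries tested the interaction of genotype and kind. SE is the fold change divided by the root of the F statistic. The script was tested on simulated data. DESeq2 1.42.0, RLE factors, no filter, a replicate block and leaving out each library were alternatives. Nothing says that samples came from separate animals, so p-values measure only the spread between samples, which may be technical. No library was treated as deposited more than once, since counts within a group differed beyond counting noise, which separate preparations of 1 RNA would show too. Chi-square over degrees of freedom was 64.6 (Mut-labelled) and 69.2 (WT) in mRNA libraries and 2.76 and 3.17 in total RNA libraries. The members and lists were chosen with earlier results of these data known. Values per library are given for the 4 most negative and 4 most positive factors in mRNA libraries, the factor of highest mean CPM in each role group, and factors said to be chosen after their values were seen. No coordinates are given for the counts.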

Additional observations from a re-analysis of the deposited data

Results flagged for a closer look

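Sbds was flagged because its libraries did not overlap in either kind and pointed in opposite directions. Lack of overlap was frequent among all genes, with 23.1% lower in Mut-labelled mRNA libraries and 22.5% higher in Mut-labelled total RNA libraries. The share of genes with both was not counted, and Sbds was picked by these same values. It was lower in the Mut-labelled mRNA libraries and higher in the Mut-labelled total RNA libraries, where it had 46.3 and 42.7 CPM in Mut-labelled and 37.0 and 31.1 CPM in WT libraries, from 31 to 51 counts a library. The dependence of its genotype difference on the kind of library was 0.65 on the log2 scale (SE 0.26, edgeR unadjusted p = 0.0311, adjusted p = 1.0), so that the difference between kinds did not pass the adjusted test.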

How the results depend on the processing

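The sign of the factors' median held under every alternative run in the 4 fits within a kind of library. With the replicate number as a block, 11 factors were called in mRNA libraries (10 lower, 1 higher; 2870 genes, 16.8% of all) and 1 in total RNA libraries (870 genes, 8.25%), and under ERCC scaling 42 (7752 genes, 45.3%) and 43 (8815 genes, 83.6%). In mRNA libraries the factors called with it included Rrp15, Wdr18, Sdad1, Ebna1bp2, Gnl3, Ftsj3 and Npm1 (lower) and Efl1 (higher). The labels do not say that the numbers pair samples, and 2 pairs cannot show it, although deviations of same-numbered samples correlated at 0.41 in mRNA and 0.23 in total RNA libraries. DESeq2 called 1615 genes in mRNA and 199 in total RNA libraries, 724 genes were called there with no filter, and 231 with TMM over ERCC rows. Leaving out each library moved the factors' median between -0.27 and -0.071 in mRNA and between -0.20 and -0.11 in total RNA libraries. Under ERCC scaling it moved the genes called between 0 and 82 in mRNA and between 37 and 7159 in total RNA libraries, the factors below 0 between 28 and 44 in mRNA libraries, and the factors called between 0 and 39 in total RNA libraries. Under ERCC scaling the medians moved more in mRNA libraries, from -1.12 to -0.06. In the interaction, a block on the sample shared by both kinds of library gave 111 genes and 0 factors. Fold changes that turned sign when a library was left out ranged in mRNA libraries from -0.053 to 0.078 for Brix1, -0.36 to 0.13 for Rrs1, -0.58 to 0.36 for Mdn1, -0.012 to 0.0067 for Ddx27, -0.22 to 0.029 for Rrp1, -0.31 to 0.086 for Eif6, -0.18 to 0.053 for Pelp1 and -0.25 to 0.034 for Bop1. In total RNA libraries they ranged from -0.33 to 0.031 for Rrp15, -0.39 to 0.30 for Efl1, -0.36 to 0.12 for Brix1, -0.25 to 0.17 for Mdn1, -0.21 to 0.045 for Ddx27, -0.086 to 0.19 for Eif6 and -0.18 to 0.30 for Npm1. Efl1 was at -0.0060 with DESeq2 and -0.0045 with the block there. Leaving a library out leaves 1 sample in a group, which is then assumed to vary like the other group. The cause of these shifts was not tested. Total RNA libraries, with 10 to 440 counts a factor, limit what can be seen.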

Other observations

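The rRNA of the large subunit was counted in the total RNA libraries beside that of the small subunit. The ratio of 28S to 18S counts was 6.11 and 6.19 in Mut-labelled and 6.73 and 6.67 in WT libraries, and the groups did not overlap. Counts were not corrected for the length of the rRNA, so the ratio is not one of molecules, and what set it was not tested. The ratio of 5.8S to 18S counts was 0.0404 and 0.0296 in Mut-labelled and 0.0408 and 0.0328 in WT libraries, with overlapping groups. With 2 libraries against 2, an exact two-sided permutation test cannot go below p = 0.333.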
